A study of Mus musculus with 27 samples.

Results

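Exchanging Gata4 for Mef2c beside a constant Tbx5 was examined in 6 ATAC-seq libraries, 3 of cells given Gata4 and Tbx5 (GT) and 3 of cells given Mef2c and Tbx5 (MT). They are 6 of the 24 libraries with counts and were chosen by their labels, and GT was set against MT over all regions of the deposited table. ATAC-seq measures open chromatin by the insertion of sequencing adapters by a transposase. The cells were a line of neonatal mouse cardiac fibroblasts from CD-1 mice, immortalised by large T antigen and carrying a GFP reporter under the alpha-MHC promoter, which is active in cardiomyocytes. Both groups received retroviruses for their factors and were cultured with sb431542, an inhibitor of the TGF-beta receptor, and xav939, an inhibitor of Wnt signalling. Cells were taken at day 2 and were not sorted, so cells that took up 1 factor or none are included, per the labels. The further groups with the inhibitors were the single factors (G, M and T), Gata4 with Mef2c (GM) and all factors (GMT). The control received a retrovirus for dsRed, a fluorescent protein, and no inhibitors, so it is given here as a level and is compared in no test. Its libraries do share in the estimate of the spread.

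Gata4 is a zinc-finger protein that binds GATA motifs and can bind sites in closed chromatin. Mef2c is a MADS-box protein that binds A/T-rich elements and activates muscle genes, and Tbx5 is a T-box protein of the developing atria and left ventricle. Given together, the 3 factors move cardiac fibroblasts towards a cardiomyocyte-like state. In mixed cells, a count cannot tell more cells with an open region from a region that is more open in each cell. What separates the replicates, which are biological per the labels, is not stated. Each p-value rests on the spread within groups, estimated over all 24 libraries with counts and not over the compared groups alone.

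Total counts were 810118, 1179791 and 424913 in GT replicates 1 to 3 and 1704896, 626225 and 428197 in MT replicates 1 to 3. Levels are given as CPM, the count scaled to the library's total with TMM scaling, and 1 CPM stood for 0.425 to 1.70 counts in these libraries before that scaling. Regions are named by their mm9 coordinates, and no gene was assigned to them because no mm9 annotation was used here. The labelled cell type was therefore not checked against marker genes.

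The labels of the libraries were checked with 3 sets of regions that neither GT nor MT libraries helped to choose. Each set holds the regions that were higher in 1 single factor than in both others, in a fit of the 9 G, M and T libraries alone. The Gata4 set of 1676 regions held 11.2, 7.04 and 5.93% of the counts in tested regions in GT replicates 1 to 3, and 2.58, 3.17 and 4.05% in the MT libraries. The Mef2c set of 1790 regions held 2.48, 1.61 and 2.84% in the GT libraries, and 6.49, 6.44 and 5.90% in the MT libraries. Neither set overlapped between the groups, in the directions the labels give.

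The Tbx5 set of 2105 regions separated one library from its group. It held 3.83, 11.1 and 10.0% of these counts in GT replicates 1 to 3, and 11.5, 11.9 and 10.8% in the MT libraries. The first value lies among the 3.32 to 4.6% of the G libraries, which received no Tbx5, and below the 13.2 to 19.6% of the T libraries. The Spearman correlation over regions of the library labelled GT replicate 1 was 0.941 with G replicate 1, against 0.730 and 0.722 with GT replicates 2 and 3. This library goes against the Tbx5 in its label. Counts of calls, shares over the lists and the ranges of the fold changes of the named regions are therefore given with and without it.

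**Figure D1:**
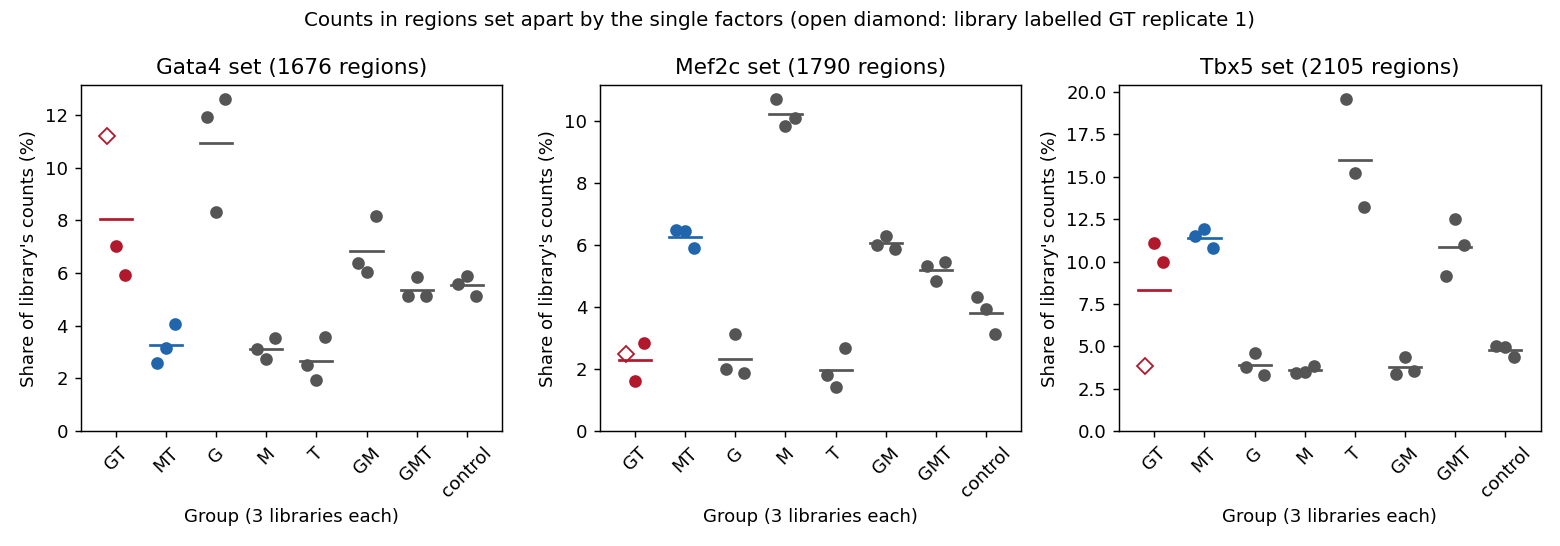
Share of each library's counts in tested regions (percent) that fell in the Gata4, Mef2c and Tbx5 sets, for the 3 libraries of each group, with lines at the means. The open diamond, the library labelled GT replicate 1, lies at 3.83% in the Tbx5 set, beside the G libraries and away from the 11.1 and 10.0% of GT replicates 2 and 3.

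With all libraries, 1755 regions were higher and 2298 lower in GT than in MT out of 20494 tested, with calls made at an adjusted p below 0.05 in the quasi-likelihood test of edgeR. These are 8.56% and 11.2% of the regions tested, and 19.8% together. The median log2 fold change was 1.85 among the higher and -2.01 among the lower regions, and 0.01 over all regions tested. Without the library labelled GT replicate 1, 1122 regions were higher and 1664 lower, or 5.18% and 7.68% of 21657 tested (12.9% together). Of the regions called with all libraries, 906 of the higher and 1524 of the lower were called in the same direction without it, and 0 in the opposite one. The libraries of the groups did not overlap at 1385 of the higher and 2110 of the lower regions. Over all regions tested, 12.1% had the 3 GT libraries above the 3 MT libraries and 17.6% had them below. The higher regions numbered 608 without MT replicate 1, the deepest library, and 1169 without MT replicate 2, and the lower ones 1283 without MT replicate 1.

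**Figure D2:**
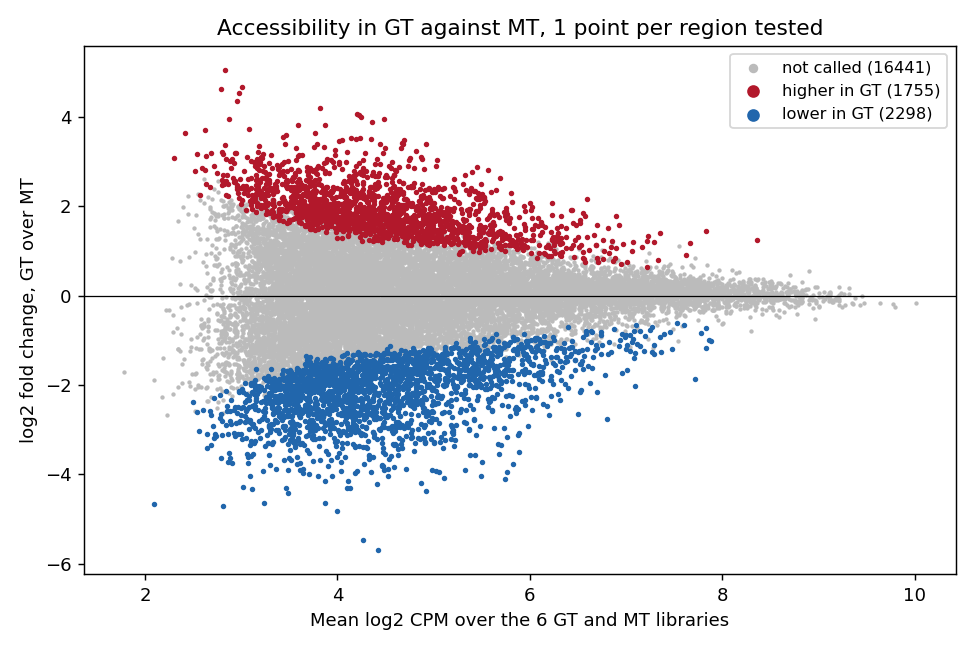
Each point is 1 of the 20494 regions tested, with its mean log2 CPM over the 6 libraries (x axis) and its log2 fold change of GT over MT (y axis). The 1755 regions higher in GT are red and the 2298 lower in GT are blue, and called regions lie farther from 0 where the mean level is low.

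The regions named below are called, do not overlap between the GT and MT libraries, are not below the median of the tested regions in mean level, and have the most extreme log2 fold changes of those that qualify. In the 10 named on the higher side, the GT libraries had 23.0 to 193 CPM and the MT libraries 3.18 to 23.5 CPM. Without the library labelled GT replicate 1, their log2 fold changes ran from 2.40 to 3.41. The first, chr1:43424240-43424548, had 87.2, 96.0 and 34.5 CPM in GT and 3.18, 10.1 and 9.42 CPM in MT. Its log2 fold change was 3.49 ± 0.54 (SE, adjusted p = 3.94e-05), and 3.39 without the library labelled GT replicate 1. G had 90.9 ± 32.6 and T 6.16 ± 5.34 CPM (SD, n = 3), so GT was at the level of Gata4 alone and MT at that of Tbx5 alone. The control was at 40.3 ± 2.35 CPM there, so its level stood between those of GT and MT.

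The second, chr17:66612117-66612438, had 89.7, 75.5 and 48.2 CPM in GT and 6.35, 8.42 and 4.71 CPM in MT. Its log2 fold change was 3.42 ± 0.52 (SE, adjusted p = 3.31e-05), and 3.24 without the library labelled GT replicate 1. Here the control had 6.40 ± 2.57 CPM (SD, n = 3), at the level of the MT libraries, whereas GM had 67.8 ± 35.2 and GMT 55.9 ± 27.6 CPM.

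The third, chr5:107876951-107877176, showed a wide spread within GT, with 193, 58.7 and 36.8 CPM, against 9.53, 8.42 and 9.42 CPM in MT. The high value is that of the library labelled GT replicate 1, and it lies within the 114 to 238 CPM of the G libraries. The log2 fold change was 3.39 ± 0.50 (SE, adjusted p = 2.58e-05) with this library and 2.41 without it. The next region, chr6:36780524-36780843, had 77.1, 82.0 and 46.0 CPM in GT and 5.08, 6.74 and 9.42 CPM in MT, a log2 fold change of 3.39 ± 0.47 (SE, adjusted p = 1.22e-05), and 3.33 without that library. At chr3:129339713-129339967 the GT libraries lay close together, with 77.1, 74.6 and 64.3 CPM, against 5.08, 8.42 and 11.8 CPM in MT. There G had 54.0 ± 27.6 CPM and M 1.08 ± 1.11 CPM (SD, n = 3).

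The other 5 regions on the higher side were chr11:88883515-88883721, chr14:122170898-122171264, chr2:91005167-91005500, chr8:131044842-131045174 and chr2:157761544-157761839. Their log2 fold changes were 3.30 ± 0.57, 3.11 ± 0.56, 3.09 ± 0.66, 3.06 ± 0.52 and 3.04 ± 0.56 (SE) in that order. The library labelled GT replicate 1 was the highest of the GT libraries in 6 of the 10 regions. All 10 were also called without it, and 3 of the 10 are among the 10 that the same ranking gives without it. The call at chr2:91005167-91005500 was lost without replicate 1 of all groups (log2 fold change 2.34, adjusted p = 0.0596).

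On the lower side the named regions lay farther apart, with 2.53 to 18.4 CPM in the GT libraries and 61.2 to 225 CPM in the MT libraries. Without the library labelled GT replicate 1, their log2 fold changes ran from -4.38 to -3.69. The first, chr15:22261286-22261486, had 2.53, 5.60 and 9.19 CPM in GT and 118, 128 and 94.2 CPM in MT. Its log2 fold change was -4.38 ± 0.53 (SE, adjusted p = 1.33e-06), and -4.01 without the library labelled GT replicate 1. G had 5.05 ± 2.52, M 9.87 ± 6.86 and T 31.0 ± 1.04 CPM (SD, n = 3), so the level of the pair MT lay above those of Mef2c alone and Tbx5 alone. It was the named region on this side with no call in G against M (log2 fold change -1.02, adjusted p = 0.252).

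The second, chr15:27554910-27555280, was high in each group given Mef2c. It had 6.32, 2.80 and 9.19 CPM in GT and 123, 104 and 77.7 CPM in MT, a log2 fold change of -4.20 ± 0.47 (SE, adjusted p = 3.01e-07). G had 5.49 ± 0.75 and M 89.1 ± 21.4 CPM, and GMT had 81.6 ± 27.0, GM 41.1 ± 10.1 and T 4.29 ± 3.79 CPM (SD, n = 3).

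In other regions of the lower side Tbx5 alone gave a level between those of the pairs. At chr3:115440637-115441271, the widest of the 10 at 635 bp, GT had 6.32, 12.1 and 18.4 CPM and MT 217, 202 and 184 CPM, while T had 68.7 ± 22.2 CPM (SD, n = 3). The log2 fold change of GT over MT was -4.10 ± 0.46 (SE, adjusted p = 3.01e-07). At chr2:6911839-6912415, GT had 5.06, 10.3 and 16.1 CPM and MT 163, 187 and 139 CPM, with 64.9 ± 9.20 CPM in T. Its log2 fold change was -4.03 ± 0.38 (SE, adjusted p = 1.81e-08).

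At chr3:107202938-107203482 the GT libraries had 11.4, 11.2 and 16.1 CPM and the MT libraries 225, 221 and 134 CPM, a log2 fold change of -3.95 ± 0.37 (SE, adjusted p = 1.81e-08). T stood at 20.0 ± 8.38 CPM (SD, n = 3), nearer to the GT libraries. Named as well were chr7:17559438-17559934, chr3:21463315-21463517, chr12:40924116-40924515, chr14:101931556-101931957 and chr7:51727579-51727848. Their log2 fold changes ran from -4.08 to -3.89, in the order given -4.08 ± 0.44, -3.95 ± 0.49, -3.92 ± 0.42, -3.91 ± 0.55 and -3.89 ± 0.46 (SE). All 10 regions of the lower side were also called without the library labelled GT replicate 1, and 4 of them are among the 10 that the same ranking gives without it.

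**Figure D3:**
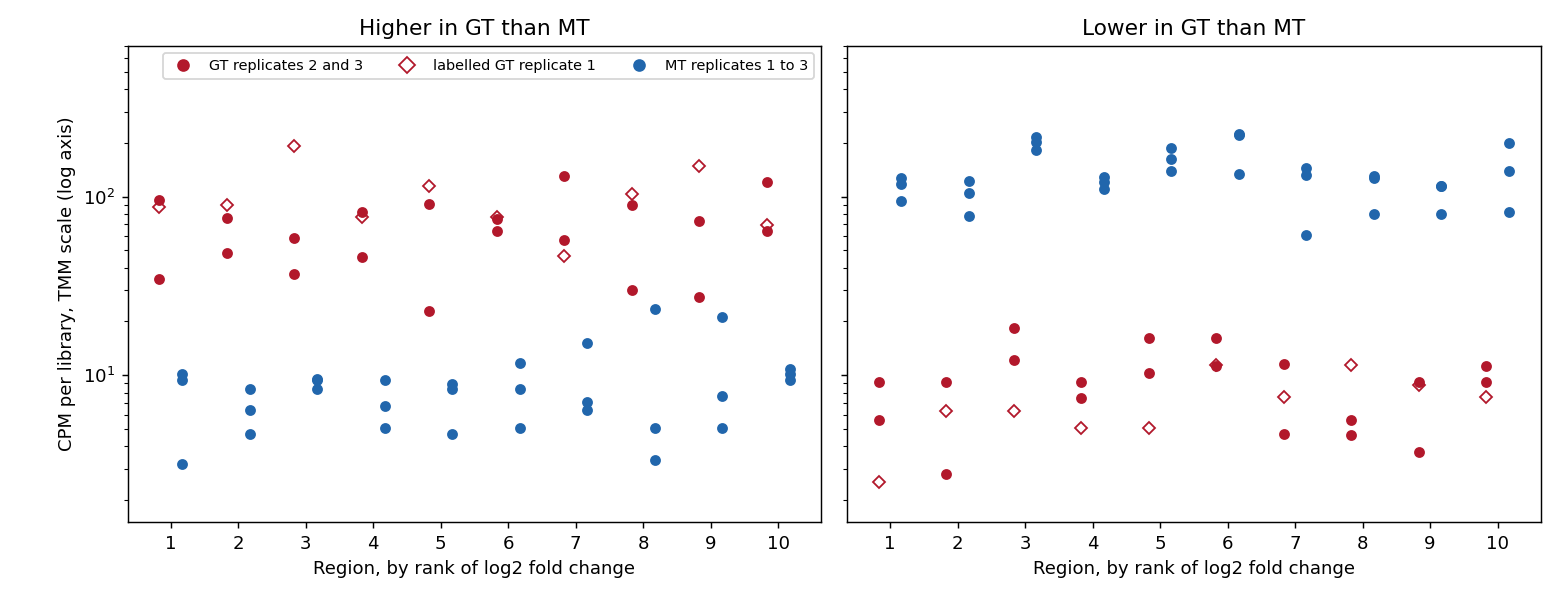
CPM per library (log axis) at the 10 named regions higher in GT (left) and the 10 lower in GT (right), in order of their log2 fold change. Red marks GT, with the library labelled GT replicate 1 as an open diamond, and blue marks MT, and the groups do not overlap in any of the 20, as the choice of the regions requires.

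Set beside T alone, both pairs differed from Tbx5 without a partner. In GT against T, 1522 regions were higher and 1077 lower, 7.43% and 5.26% of those tested (12.7% together). In MT against T, 1085 were higher and 241 lower, 5.29% and 1.18% (6.47% together). Both comparisons use the same 3 T libraries. When the library labelled GT replicate 1 was left out, GT against T had 557 higher and 357 lower, or 2.57% and 1.65% (4.22% together). MT against T had 1271 higher and 407 lower in that fit, or 5.87% and 1.88% (7.75% together). The calls depended on single T libraries: they numbered 1164 without T replicate 1 and 889 without T replicate 2 in GT against T, and 600 and 319 in MT against T. MT against T had 753 calls without MT replicate 1 and 546 without MT replicate 2. The named regions were chosen for their GT and MT values, so their calls against T reuse the libraries that chose them and are not given as a result. T means over these regions ran from 4.92 to 25.8 CPM on the higher side and from 4.29 to 68.7 CPM on the lower side.

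The levels in groups that did not choose the lists were then described over all called regions. The 1755 regions higher in GT had a median level of 36.8 CPM in GT and 9.93 CPM in MT, and 42.2 CPM in G, 9.24 CPM in M and 10.9 CPM in T. The T level was nearer to MT than to GT on the log2 scale in 86.7% of them, against 53.4% of all regions tested. The 2298 regions lower in GT had a median of 8.55 CPM in GT and 37.3 CPM in MT, and 7.32 CPM in G, 30.9 CPM in M and 13.9 CPM in T. In these the T level was nearer to MT in 34.3%. In the lists made without the library labelled GT replicate 1, the shares were 77.0% and 29.5%, against 49.6% of all regions tested. The control was at 13.3 CPM in the first list and 9.60 CPM in the second, where the median of all regions tested was 18.9 CPM.

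The level of cells with all 3 factors was set beside those of the pairs. GMT had a median of 21.8 CPM in the regions higher in GT and 26.3 CPM in those lower in GT, and its level lay between those of GT and MT in 84.7% and 81.4%, against 44.8% of all regions tested. Regions chosen for a wide gap between GT and MT leave more room for any group to lie between them. T did so in 58.7% and 64.1%, against 32.2% of all regions tested, and GM in 77.4% and 60.6%, against 37.5%. With the library labelled GT replicate 1 left out, the shares of GMT were 89.8% and 82.8%, against 42.8% of all regions tested. In that fit T lay between the pairs in 69.1% and 72.4%, against 33.7%, and GM in 61.8% and 63%, against 32%. GMT was nearer to MT than to GT in 45.8% of the regions higher in GT and in 76.4% of those lower in GT, against 55.9% of all regions tested. Without that library the shares were 32.1% and 78.5%, against 54.4%. GM, which lacks Tbx5, had medians of 22.8 and 17.5 CPM. In a fit without the library labelled GT replicate 1, the 1122 regions higher in GT had medians of 43.3 CPM in GT, 11.4 in MT and 28.2 in GMT. The 1664 regions lower in GT had 7.33 CPM in GT, 36.6 in MT and 25.3 in GMT in that fit.

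**Figure D4:**
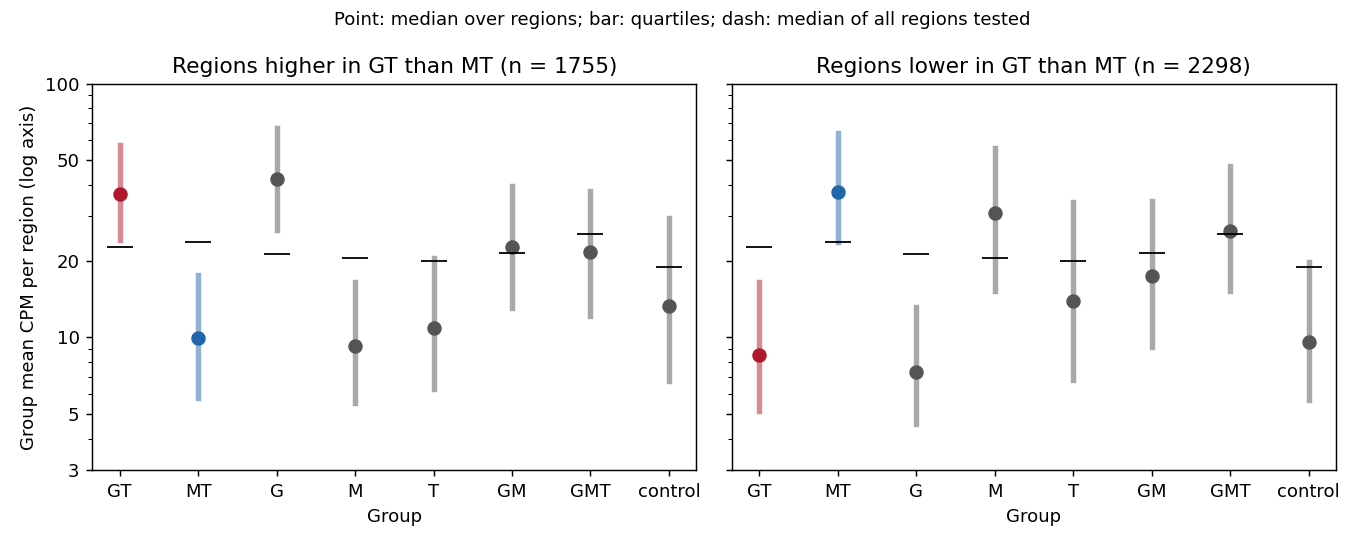
Group mean CPM per region (log axis) in all 8 groups over the 1755 regions higher in GT (left) and the 2298 lower in GT (right), as medians with quartiles, and dashes for the median of all regions tested. G lies near GT and M near MT in both panels, and GM and GMT have values between the pairs.

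The regions set apart by the single factors were read in the same test. Of the 1676 regions of the Gata4 set, 967 (57.7%) were higher in GT and 0 lower, with a median log2 fold change of 1.48. Of the 1790 regions of the Mef2c set, 954 (53.3%) were lower in GT and 0 higher, with a median of -1.57. Over all regions tested, 8.56% were higher and 11.2% lower, and the median was 0.01. The Gata4 set made up 55.1% of the regions higher in GT, and the Mef2c set 41.5% of those lower in GT. When the library labelled GT replicate 1 was left out, 454 regions (27.1%) of the Gata4 set were higher, with a median of 1.07. In the Mef2c set 790 (44.1%) were then lower, with a median of -1.66.

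The Tbx5 set, whose factor is common to both groups, had 24 regions higher and 328 lower in GT (1.14% and 15.6%), with a median log2 fold change of -0.47. Without the library labelled GT replicate 1 there were 94 higher and 158 lower (4.47% and 7.51%), with a median of -0.11. Background shares in that fit were 5.18% higher and 7.68% lower. The share of lower calls in this set thus lay above the background with all libraries and beside it without that library.

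The position of called regions along the chromosomes was then described. Called regions of 1 direction at most 50000 bp apart formed 170 runs of 2 or more with 379 (21.6%) of the regions higher in GT, and 271 runs with 614 (26.7%) of those lower in GT. Of all regions tested, 76.9% have another tested region within that distance, and how many runs these rates of calls would give by position alone was not tested. Without the library labelled GT replicate 1 there were 93 runs with 197 (17.6%) of the regions higher in GT, the longest of 3, and 154 runs with 337 (20.3%) of those lower in GT, the longest of 6. With all libraries, the run with the most regions was chr10:76859811-76961325, where 8 of the 11 regions tested were lower in GT, with log2 fold changes from -2.69 to -1.29. Group means over its regions ran from 8.55 to 32.9 CPM in GT, 46.5 to 78.2 CPM in MT and 22.7 to 120 CPM in T. None of the 8 was called in G against M, and 4 of the 8 were called without the library labelled GT replicate 1. At chr10:76904259-76904791 the GT libraries had 5.06, 28.9 and 46.0 CPM and the MT libraries 97.2, 59.0 and 61.2 CPM, so the first of the GT libraries is far below the others. The log2 fold change was -1.54 ± 0.46 (SE, adjusted p = 0.0159) with it and -1.02 (adjusted p = 0.106) without it.

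The next run on the lower side, chr16:87556512-87645073, held 6 of 8 regions tested and did not rest on that library. All 6 were called without it, and all 6 were called in G against M. Its last region, chr16:87644511-87645073, had 13.9, 6.53 and 16.1 CPM in GT and 205, 145 and 96.5 CPM in MT, a log2 fold change of -3.72 ± 0.40 (SE, adjusted p = 1.81e-07). M was at 256 ± 31.1, GMT at 102 ± 36.5 and T at 32.4 ± 7.38 CPM there (SD, n = 3). At its first region, chr16:87556512-87557068, GT had 15.2, 7.46 and 4.6 CPM and MT 100, 110 and 70.6 CPM, while T had 13.0 ± 12.4 CPM.

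On the higher side, the runs with the most regions held 5 each. In chr18:74621969-74753893, 5 of 5 regions tested were higher in GT, with log2 fold changes from 1.29 to 3.55, and 2 of the 5 were called without the library labelled GT replicate 1. Its middle region, chr18:74696649-74697129, had 134, 41.0 and 27.6 CPM in GT and 18.4, 10.1 and 16.5 CPM in MT, so the groups did not overlap, and its log2 fold change was 2.14 (adjusted p = 0.00777) with the first of the GT libraries and 1.19 (adjusted p = 0.170) without it. In chr3:115817861-115894603, 5 of 6 regions were higher in GT, and again 2 were called without that library. There chr3:115829556-115829788 went the other way within GT, with 22.8 CPM in the library labelled GT replicate 1 and 82.0 and 55.1 CPM in replicates 2 and 3, against 22.9, 16.8 and 14.1 CPM in MT. Its T level was 37.3 ± 18.6 CPM and its G level 17.7 ± 3.38 CPM (SD, n = 3).

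The same exchange without Tbx5, G against M, was measured in libraries that share none with GT and MT. There 3243 regions were higher and 3048 lower in G, 15.8% and 14.9% of those tested (30.7% together). Of the 1755 regions higher in GT than in MT, 1453 were also higher in G than in M, which is 82.8% of the first list and 44.8% of the second. Among the 2298 regions lower in GT than in MT, 1509 were called lower in G than in M as well, or 65.7% and 49.5%. With the library labelled GT replicate 1 left out, the shared regions numbered 813 of 1122 higher (72.5%) and 1234 of 1664 lower (74.2%), or 22.4% and 36.8% of the G against M lists of that fit, which held 16.8% and 15.5% of the regions tested (32.3% together). With this library and its nearest match, G replicate 1, both left out, 1784 regions were shared in the same direction. The number was 2047 without the library labelled GT replicate 1 alone and 2962 with all libraries. G against M had 5385 calls with both left out and 6989 without the library labelled GT replicate 1 alone. Without MT replicate 1, the higher and lower regions shared in the same direction numbered 1453, against 2962 with all libraries. GT against MT had 608 higher and 1283 lower regions in that fit. Across the 20494 regions the log2 fold changes of both exchanges correlated at a Pearson r of 0.809, and at 0.768 over 20467 regions without the library labelled GT replicate 1. These correlations run across regions, which share libraries and are not independent.

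**Figure D5:**
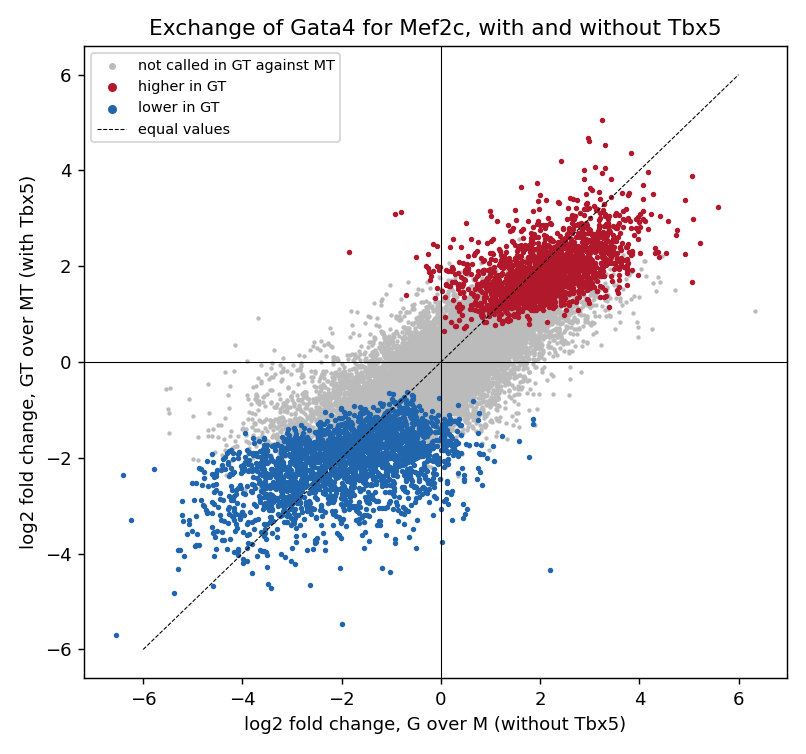
Log2 fold change of G over M (x axis) and of GT over MT (y axis) for the 20494 regions tested, with the regions called in GT against MT in red (higher) and blue (lower) and a dashed line at equal values. Of the regions higher in GT, 1453 of 1755 were also higher in G, and of those lower in GT, 1509 of 2298 were also lower in G.

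Whether the exchange differed with and without Tbx5 was tested as the difference of both log2 fold changes. One region, 0.00488% of those tested, passed by edgeR's quasi-likelihood test at an adjusted p below 0.05, and 1 passed by DESeq2. An unadjusted p below 0.05 was found in 1186 of 20494 regions by edgeR. Without the library labelled GT replicate 1 the number was 1497 of 21657. A share of 0.05 would pass that threshold if no region differed. When the library labelled GT replicate 1 was left out, 1 region passed, 0.00462% of those tested. In both cases it was chr8:4230734-4231155, where GT had 260 ± 73.7 and MT 164 ± 38.0 CPM (SD, n = 3), a log2 fold change of 0.69 ± 0.26 (SE, adjusted p = 0.0585). Without Tbx5, G had 235 ± 83.4 and M 20.9 ± 3.90 CPM, a log2 fold change of 3.50 (adjusted p = 6.53e-09). The difference was -2.82 ± 0.41 (SE, adjusted p = 0.00112), and -2.75 (adjusted p = 0.0067) without that library. T alone had 158 ± 32.9 CPM and the control 24.3 ± 4.40 CPM, so each group given Gata4 or Tbx5 stood above M and the control. The call was lost without replicate 1 (adjusted p = 0.195) or replicate 3 (adjusted p = 0.266) of all groups. The 95% interval of this difference, built from its SE, had a median half-width of 1.46 on the log2 scale. It lay within -1 and 1 in 1956 regions (9.54%), or in 1594 (7.36%) without the library labelled GT replicate 1. Most regions were thus not bounded to a difference under 2-fold by this interval. The SE is unreliable where the difference is near 0, too small in some regions and too large in others. These numbers of bounded regions are therefore rough and do not measure how precisely the difference was estimated.

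In 2 regions the exchanges were called in opposite directions, and these are named after their values were seen. At chr1:136172255-136172701 GT had 8.85, 38.2 and 18.4 CPM and MT 62.9, 48.9 and 54.2 CPM, a log2 fold change of -1.29 (adjusted p = 0.0255), whereas G had 9.18 ± 3.06 and M 2.33 ± 0.72 CPM (SD, n = 3). T had 154 CPM there, above every other group named. At chr4:40492878-40493297 GT had 6.32, 21.4 and 34.5 CPM and MT 33.0, 43.8 and 61.2 CPM, so the libraries overlapped, with a log2 fold change of -1.18 (adjusted p = 0.0495). In both the library labelled GT replicate 1 was the lowest, and without it neither was called (adjusted p = 0.169 and 0.292). The fit without that library had 1 opposite call, in another region. With all libraries, the difference between the exchanges had an adjusted p of 0.388 in each of the 2 named regions.

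Regions whose difference could be bounded were counted by their intervals, which does not show that they are equal. These intervals are also built from the SE, which is unreliable near a log2 fold change of 0. The numbers of regions bounded and not bounded are therefore rough. In 3933 regions (19.2%) the 95% interval of the log2 fold change of GT over MT lay within -1 and 1, a change below 2-fold, and 0 of these were called. Without the library labelled GT replicate 1 they numbered 3469 (16.0%), and without MT replicate 1 they numbered 2611. With all libraries they had a median of 107 CPM, against 23.7 CPM over all regions tested. The highest of them, chr15:44259359-44259640, had 866, 986 and 1068 CPM in GT and 1062, 1171 and 1055 CPM in MT, with an interval from -0.60 to 0.25. The next, chr8:4166019-4166413, had 768, 885 and 784 CPM in GT and 910.4, 982 and 1029 CPM in MT, with an interval from -0.62 to 0.10. The GT libraries there all lay below the MT libraries. A further 12508 regions (61.0%) were neither called nor bounded in this way, or 15402 (71.1%) without the library labelled GT replicate 1, and their intervals reach beyond a 2-fold difference at this depth.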

How the data were processed

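The authors deposited raw counts for 30815 regions of 201 to 1484 bp in 24 libraries, per the file headers. The submitters' processing notes name Bowtie2, Picard, featureCounts and mm9, without versions. The definition of the regions and the counting unit, read or fragment, are not given in the sources used here. Aliquots of 50000 cells, 12 PCR cycles and reads of 100 bp were used, per the labels. The 3 dsRed samples with the inhibitors were not analysed here.

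In R 4.3.3 with edgeR 4.0.16, regions passing filterByExpr (minimum count 10, minimum total 15) numbered 20494 (66.5%). All 8 groups were fitted together with TMM scaling and robust quasi-likelihood tests (glmQLFit, glmQLFTest), with Benjamini-Hochberg adjustment over all regions tested. The SE is the log2 fold change divided by the square root of F, which makes it unreliable where the log2 fold change is near 0. For mean levels on the log2 scale, CPM took a prior count of 2. The rule for named regions took 10 on each side, called, at or above the median level and without overlap of libraries. Deviations of same-numbered MT and T libraries correlated at 0.227, 0.103 and 0.349, so replicate numbers may pair these groups by the data, though no label says so. The tests were tried on simulated data. Alternatives used limma 3.58.1 (loess offsets, span 0.3) and DESeq2 1.42.0, among others. Regions, sets and tests were chosen with earlier results of these data known.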

Additional observations from a re-analysis of the deposited data

Results flagged for a closer look

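The exchange of Gata4 for Mef2c was called as different with and without Tbx5, by the test of the difference itself, in 1 of 20494 regions. For the regions not called, the exchange is not shown to be the same with and without Tbx5. At that region, chr8:4230734-4231155, the log2 fold change of GT over MT was lower than that of G over M by -2.82 ± 0.41 (SE, adjusted p = 0.00112 by edgeR). The 3 GT libraries had 235, 343 and 202 CPM and the 3 MT libraries 131, 205 and 155 CPM, whereas the G libraries had 325, 161 and 219 CPM and the M libraries 16.7, 21.7 and 24.4 CPM. The pairs overlapped and the single factors did not. By edgeR, the call was lost without replicate 1 (adjusted p = 0.195) or replicate 3 (adjusted p = 0.266) of all groups.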

How the results depend on the processing

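Of the 420 tests of the 20 named regions under the alternatives, 419 kept direction and call. These regions were chosen as the most extreme in the same counts, so this number does not speak for the lists. The numbers of regions higher and lower in GT than in MT were 715 and 1342 with only the groups compared, 884 and 1499 with only these groups and without the library labelled GT replicate 1, 970 and 1492 at a minimum fold of 1.5, and 696 and 1202 at an adjusted p below 0.01. Leaving out single libraries or replicate numbers gave 446 to 2197 higher and 848 to 2248 lower. Without replicate 1, 2 or 3 of all groups they were 446, 838 and 1224 higher. In the same order of alternatives, shared calls with G against M were 1505, 1581, 1795 and 1369 (1784 without that library and G replicate 1, chosen after seeing the data, and 840 to 3340 when leaving out), and calls in GT against T were 969, 886, 1219 and 896 (267 to 3043). MT against T had 559 at the minimum fold and 456 at the stricter threshold (93 to 1864). G against M had 4137 with a minimum count of 20 and 4184 at the stricter threshold (3003 to 7218). Opposite calls numbered 2 with all libraries, 1 with RLE, total counts or loess offsets, and 0 with DESeq2, no filter, only the groups compared, the minimum fold or the stricter threshold (0 to 3 when leaving out). The difference between exchanges had 0 to 7 calls when leaving out, with 7 without GT replicate 2, and bounded regions numbered 2611 to 3469. Regions of the single-factor sets at the stricter threshold gave log2 ratios of GT to MT shares of 1.52, -1.62 and -0.51 (1.30, -1.44 and -0.46 at 0.05).

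With the replicate number as a block there were 1750 higher and 2299 lower, and 1297 calls in MT against T. Deviations of same-numbered GT and MT libraries correlated at -0.01, 0.19 and 0.09, so the numbers were not taken to pair the samples, and not every library correlated best with its own number. The block without the library labelled GT replicate 1 gave 913 higher, 1366 lower, 1719 shared in the same direction, 0 opposite and 748 in GT against T. Intervals are wide at low counts, and 3 libraries a group with totals of at most 1704896 counts limit what can be called. The causes of these changes were not tested.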

Other observations

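Regions lower in GT than in MT and regions higher in GT were both more frequent among wide regions. Of the 1638 regions of the smallest width, 4.64% were lower and 5.25% higher, against 15.9% and 9.76% of the 1352 regions of 501 to 1174 bp. Between them, regions of 202 to 250 bp had 10.0% lower and 8.24% higher, and those of 351 to 500 bp 14.1% and 9.26%. With the library labelled GT replicate 1 left out, 3.07% of the regions of the smallest width were lower and 1.75% higher, against 10.8% and 8.51% of the widest. The part of a region's count in this was not tested.

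By level, the 5124 regions with the highest mean CPM had 3.69% higher and 5.66% lower in GT, with a median SE of 0.30 on the log2 scale. The 5124 with the lowest had 8.78% higher and 11.6% lower, with a median SE of 0.67. When the library labelled GT replicate 1 was left out, the highest-level regions had 2.75% higher and 4.67% lower and the lowest-level ones 3.84% and 5.72%. By chromosome, regions higher in GT made up 5.89% of those tested on chromosome 16 and 10.7% on chromosomes 7 and 14, and regions lower in GT 8.06% on chromosome 11 and 14.2% on chromosome X. Without that library, these shares were 4.15% on chromosome 16, 6.88% on 7 and 5.82% on 14 for the higher regions, and 6.23% on chromosome 11 and 8.29% on X for the lower ones. The lowest share of higher regions was then on chromosome X (2.94%), and the highest share of lower regions on chromosome 18 (9.73%). With all libraries, chromosome 16 had 37 higher and 78 lower regions among 628 tested, and chromosome 11 had 123 higher and 114 lower among 1415.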
